A study of Mus musculus with 6 samples.

Results

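The miR-132 and miR-212 cluster was examined through every row of the deposited miRNA table whose name begins with mmu-miR-132- or mmu-miR-212-. This gave 4 rows out of 1522, namely mmu-miR-132-3p, mmu-miR-132-5p, mmu-miR-212-3p and mmu-miR-212-5p, which are the 2 arms of each of 2 precursors and are written without the species prefix from here on. The data are small RNA libraries of neural stem cells (NSCs) that were taken on postnatal day 3 from hippocampi of C57BL/6J males. In the GDE group (titled IUGR) the pregnant dams had been given daily intraperitoneal dexamethasone, a synthetic glucocorticoid, at 1 mg/kg between embryonic days E14.5 and E18.5. In the Control group (titled Normal) the dams had been given saline on the same days. There were 3 libraries in each group, from independent litters per the design text, and all samples shared sex, strain, age and tissue.

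miRNAs are short RNAs that guide the silencing machinery to messenger RNAs, mainly through bases 2 to 8, the seed. A hairpin precursor yields a 5p and a 3p arm, and each arm can become a mature miRNA. miR-132 and miR-212 are made from a single primary transcript that CREB, the cAMP-responsive transcription factor, switches on after neurotrophin signals and neuronal activity. In neurons of the mouse the cluster promotes growth of dendrites and spines. In mouse brain, miR-132-3p is generally described as the main product of the cluster.

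The 4 mature sequences, from RefSeq on GRCm38.p6, are shown because they set which rows can act on the same targets; capitals mark the seed.
miR-132-3p: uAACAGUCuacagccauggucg
miR-212-3p: uAACAGUCuccagucacggcca
miR-132-5p: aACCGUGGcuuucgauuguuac
miR-212-5p: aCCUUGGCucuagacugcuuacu

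The 3p arms shared the seed AACAGUC, and among the 1679 mature names of the reference table no other miRNA had it. The seeds of miR-132-5p and miR-212-5p were each found in 1 mature miRNA, the arm itself. Both 3p arms are 22 bases long, with the first 9 bases in common and 17 identical positions in all. The differences from miR-132-3p to miR-212-3p, counted from 1 at the 5′ end, were A10C, C14U, U17C, U20C and G22A. The first differing base is thus position 10. None of the 4 rows carried the values of another row of the table in all libraries.

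The hairpins are shown to place the arms, with the 5p and then the 3p arm in capitals.
Mir212: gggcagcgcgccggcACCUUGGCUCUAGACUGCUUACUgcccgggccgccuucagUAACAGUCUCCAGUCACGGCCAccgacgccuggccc
Mir132: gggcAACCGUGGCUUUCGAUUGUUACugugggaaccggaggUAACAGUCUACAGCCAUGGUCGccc

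Mir212 lies at chr11:75173388-75173478 and Mir132 at chr11:75173682-75173747, both on the plus strand, with 203 bases between them. Both lie in intron 1 of 1700016P03Rik, a noncoding host transcript with 3 exons in GENCODE M21 that starts 828 bases upstream of Mir212.

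The libraries were alike in depth. Each rested on about 11751000 to 12385000 reads. Levels are given as RPM, the usual depth-scaled read rate, here relative to that depth. The reads of all rows of the table added up to between 2927136 and 3343808 per library. Some rows of the table had the same levels as another row, so reads can count more than once in this sum. All marker lists had detected members, and none had a member at 0 in every library. The 10 neural progenitor miRNAs summed to between 19820 and 20840 RPM in GDE and between 19450 and 22340 RPM in Control. Most of that sum came from miR-9-5p and miR-9-3p, which averaged 8408 and 7898 RPM over the 6 libraries. Both stood at the top of the levels, with a mean log2(RPM + 1) of 13.04 and 12.94, beside let-7b-5p at 13.03 and let-7a-5p at 12.96. Whether levels at this top are compressed was not tested, and the sum says little of the less abundant progenitor miRNAs. Of the 10 progenitor miRNAs 2 had positive and 8 negative log2 folds. Their median was -0.04, against -0.07 over all tested miRNAs. The 10 neuronal miRNAs, of which 2 (miR-124-3p and miR-137-3p) are also in the progenitor list, summed to between 4221 and 5016 RPM in GDE and between 4402 and 5183 RPM in Control. The 4 oligodendrocyte miRNAs (598.3 to 709.3 RPM in GDE, 549.4 to 646.1 RPM in Control), the 4 endothelial and mural ones (339.7 to 558.8 RPM in GDE, 316.0 to 408.9 RPM in Control) and the 5 choroid and ependymal ones (1976 to 2315 RPM in GDE, 1950 to 2387 RPM in Control) overlapped between the groups as sums. The 4 oligodendrocyte miRNAs all had positive log2 folds, 0 without overlap. Single members of the endothelial and mural list and of the choroid and ependymal list did not all follow their sum. The 4 endothelial and mural miRNAs all had positive log2 folds, 2 without overlap. Of the choroid and ependymal ones 3 had positive and 2 negative log2 folds, 2 without overlap, and 3 of these 5 had an unadjusted limma p under 0.05. Over all 649 miRNAs tested in limma, 14.6% had groups that did not overlap and 8.63% an unadjusted p under 0.05. No tested member of any marker list had a limma adjusted p under 0.05. Among the choroid and ependymal ones miR-204-5p averaged 682.0 ± 294.5 RPM (GDE) and 333.0 ± 182.3 RPM (Control), whereas miR-34b-3p averaged 647.2 ± 22.6 RPM (GDE) and 903.3 ± 214.1 RPM (Control; SD, n = 3 each). The groups overlapped for miR-204-5p (limma, adjusted p = 0.561), which was picked for naming after its values were seen. As a sum, the 5 microglia and leukocyte miRNAs did not overlap between the groups (GDE 409.1 to 572.5 RPM, Control 222.5 to 369.7 RPM). Their log2 folds were positive for 4 and negative for 1, 3 members did not overlap, and 3 of the 5 had an unadjusted limma p under 0.05. The largest log2 folds were 1.72 for miR-142a-3p and 1.55 for miR-223-3p (limma, adjusted p = 0.561 and 0.551), both without overlap. miR-150-5p averaged 298.4 ± 62.45 (GDE) and 126.8 ± 52.39 RPM (Control). miR-155-5p went the other way, with 90.59 ± 6.57 (GDE) and 108.2 ± 13.09 RPM (Control). The sum of the 3 erythroid ones did not overlap either (GDE 73.8 to 93.5 RPM, Control 34.98 to 69.0 RPM). Of its 2 tested members miR-451a averaged 65.3 ± 8.06 (GDE) and 34.5 ± 16.5 RPM (Control). miR-486a-5p averaged 15.63 ± 2.01 (GDE) and 15.03 ± 1.14 RPM (Control; SD, n = 3 each). These members were named after their values were seen. In these bulk libraries fewer cells of a type and less RNA per cell cannot be told apart, and the part of such cells in the values below was not tested.

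Within the cluster the arms of Mir212 dominated, and miR-132-3p was the lowest of the 4 rows in every library. Over the 6 libraries miR-212-3p averaged 79.6 ± 15.4 RPM and miR-212-5p 69.1 ± 26.7 RPM (SD, n = 6). miR-132-5p averaged 17.3 ± 3.79 RPM and miR-132-3p 5.68 ± 0.628 RPM. Among the 1147 rows with a miRBase name, whose median was 0.863 RPM, these means ranked 178, 188, 278 and 378. The Mir212 arms made up 83.6% to 90.9% of the RPM of all 4 rows.

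The order was compared within libraries over the 6 pairs of rows, with an exact two-sided sign-flip permutation test over 6 libraries. In 5 of these pairs 1 row was higher in 6 of 6 libraries, each at an exact sign-flip permutation p of 0.031, the smallest value this test allows, and at 0.0375 after Benjamini-Hochberg adjustment over the pairs. miR-212-3p exceeded miR-132-3p between 9.97-fold and 16.8-fold, and it exceeded miR-132-5p between 3.84-fold and 7.53-fold. miR-212-5p exceeded miR-132-3p between 6.54-fold and 19.3-fold and miR-132-5p between 2.36-fold and 7.43-fold. miR-132-5p exceeded miR-132-3p between 2.23-fold and 4.09-fold, so the level of the 5p arm of Mir132 was above that of its 3p arm throughout. For the remaining pair, which were neighbours in the order, the test did not pass. miR-212-3p was above miR-212-5p in 5 of 6 libraries, at a mean log2 ratio of 0.27 (SD 0.68; exact sign-flip permutation p = 0.4375). Without Control replicate 2 the ratio was 0.51, higher in 5 of 5 libraries (exact sign-flip permutation p = 0.0625, the smallest that 5 libraries allow), and without GDE replicate 3 it was 0.13. These ratios compare reads of different sequences, whose capture by ligation and amplification can differ. How reads were assigned to the arms is not stated in the labels, and neither step was measured here.

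**Figure D1:**
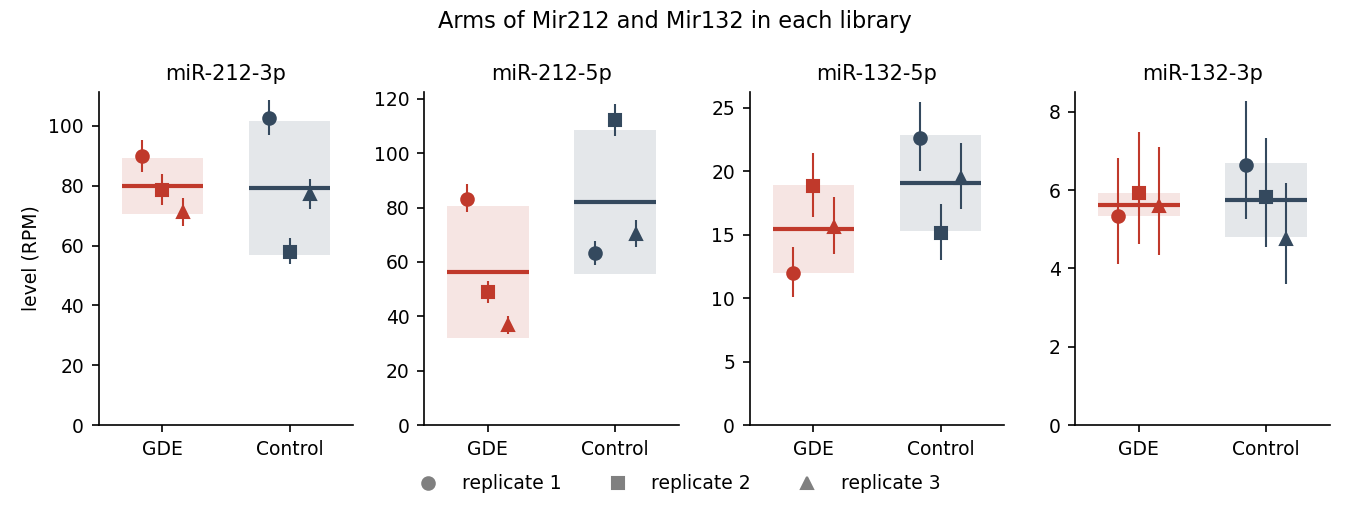
Level of each arm (RPM, linear axis from 0, own scale per panel) in the 3 GDE and 3 Control libraries; error bars are exact 95% binomial counting intervals, lines are group means and shaded bands 1 SD. The groups overlap in each panel, and miR-132-3p stays between 4.77 and 6.65 RPM while miR-212-5p runs between 36.7 and 112.2 RPM.

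Because miR-132-3p and miR-212-3p share their seed, their levels were also added. The sum was 95.3, 84.6 and 76.8 RPM in GDE replicates 1 to 3 and 109.4, 63.8 and 81.9 RPM in Control replicates 1 to 3. The GDE sums lay inside the Control range, with means of 85.5 ± 9.28 RPM in GDE and 85.0 ± 23.0 RPM in Control (SD, n = 3 each; exact two-sided permutation p = 0.9). In each library miR-212-3p supplied most of this sum, between 90.9% and 94.4% of it.

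None of the 4 arms differed between GDE and Control past the threshold in limma, fitted over the 649 miRNAs that reached 1 RPM in 3 libraries. Each of the 4 arms passed that filter and was above 1 RPM in all 6 libraries. The count of arms at an adjusted p under 0.05 was 0, and so was the count at an unadjusted p under 0.05. edgeR and DESeq2 on recovered reads also called 0 of the 4. Over all tested miRNAs the share called by limma was 0.308%, and 14.6% had groups that did not overlap, against 0 of the 4 arms. Fold changes below are GDE over Control. They are differences of log2(RPM + 1), smaller than the true change where levels are low, and stand with a 95% interval from limma. With 3 against 3 libraries, the exact permutation test cannot give a p below 0.1.

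miR-212-5p, an arm with a seed of its own, had the largest difference of the 4. It stood at 83.3, 48.8 and 36.7 RPM in GDE replicates 1 to 3, against 63.2, 112.2 and 70.4 RPM in Control replicates 1 to 3. GDE replicates 2 and 3 were the lowest of the 6 libraries and Control replicate 2 the highest, but GDE replicate 1 lay above 2 of the Control libraries, so the groups overlapped. The means were 56.3 ± 24.2 RPM in GDE and 81.9 ± 26.5 RPM in Control (SD, n = 3 each). The log2 fold was -0.57 (SE 0.35, interval -1.39 to 0.25; limma, adjusted p = 0.627; alternatives between 0.459 and 0.922; exact permutation p = 0.3). It was -0.32 without Control replicate 2, -0.31 without GDE replicate 3 and -0.89 without GDE replicate 1.

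miR-132-5p, the other 5p arm, was at 11.9, 18.8 and 15.6 RPM in GDE replicates 1 to 3, against 22.6, 15.1 and 19.5 RPM in Control replicates 1 to 3. GDE replicate 1 was the lowest library and Control replicate 1 the highest, while Control replicate 2 lay below 2 GDE libraries. The means were 15.4 ± 3.43 RPM in GDE and 19.1 ± 3.77 RPM in Control (SD, n = 3 each). The log2 fold was -0.29 (SE 0.25, interval -0.87 to 0.29; limma, adjusted p = 0.723; alternatives between 0.711 and 0.985; exact permutation p = 0.3). It was -0.13 without GDE replicate 1 and -0.17 without Control replicate 1, and -0.44 without GDE replicate 2 or without Control replicate 2.

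miR-212-3p, the main carrier of the shared seed, was at 89.9, 78.6 and 71.2 RPM in GDE replicates 1 to 3, against 102.7, 58.0 and 77.1 RPM in Control replicates 1 to 3. The highest and the lowest library were both Control, so all GDE values fell within the Control range. The means were 79.9 ± 9.44 RPM in GDE and 79.3 ± 22.5 RPM in Control (SD, n = 3 each). The log2 fold was 0.04 (SE 0.26, interval -0.55 to 0.64; limma, adjusted p = 0.989; alternatives between 0.817 and 1.0; exact permutation p = 0.9), and its sign turned to -0.16 without Control replicate 2 and to -0.04 without GDE replicate 1.

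miR-132-3p, the arm best known from neurons, was at 5.34, 5.93 and 5.61 RPM in GDE replicates 1 to 3, against 6.65, 5.81 and 4.77 RPM in Control replicates 1 to 3. Again the highest and the lowest library were both Control. The means were 5.63 ± 0.291 RPM in GDE and 5.74 ± 0.944 RPM in Control (SD, n = 3 each). The log2 fold was -0.02 (SE 0.19, interval -0.47 to 0.43; limma, adjusted p = 0.994; alternatives between 0.846 and 1.0; exact permutation p = 0.9). Its sign depended on the scaling, at 0.03 with the RPM rescaled to the sum of the table and 0.07 with TMM factors.

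**Figure D2:**
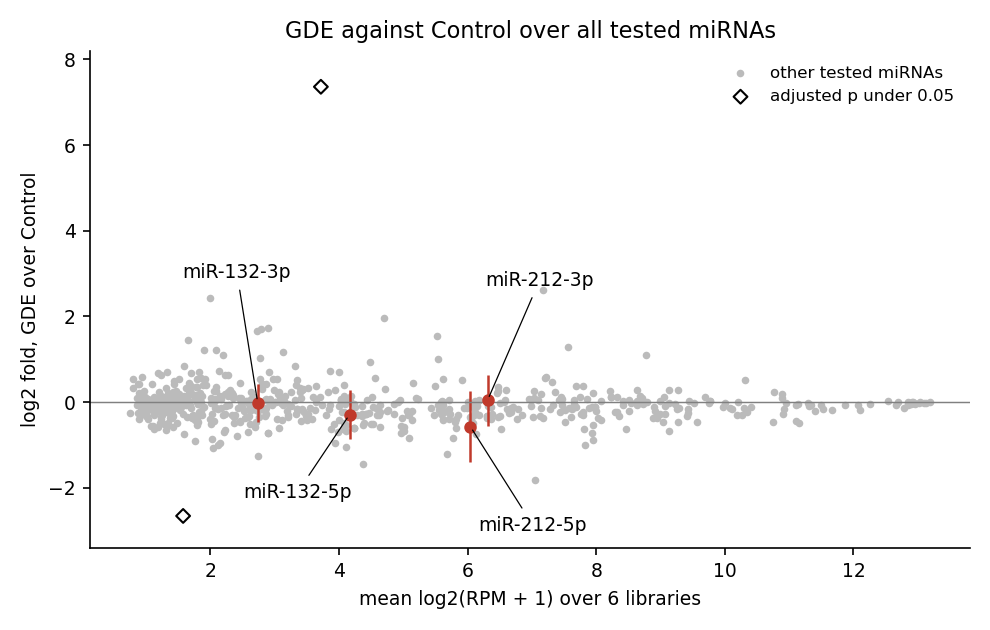
log2 fold of GDE over Control against mean log2(RPM + 1) for the 649 tested miRNAs, with the 4 arms in red and their 95% intervals from limma, and the 2 called miRNAs as diamonds. The intervals of all 4 arms include 0, and the arms lie within the cloud of the other miRNAs.

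The spread of each arm over its libraries was set beside its counting error. For miR-132-3p, with 56 to 80 reads per library, the chi-square per degree of freedom over the 6 libraries was 0.825, where counting error alone gives about 1. The exact 95% binomial counting interval of its lowest library (Control replicate 3) was 3.6 to 6.19 RPM and that of its highest (Control replicate 1) 5.27 to 8.28 RPM, so differences among its libraries were not detectable at this depth. For miR-132-5p, with 143 to 272 reads, the value was 9.99. It was 36.4 for miR-212-3p, with 718 to 1236 reads, and 125.3 for miR-212-5p, with 445 to 1389 reads. These 3 arms thus varied by more than counting error. This measure grows with the number of reads and gives no order among arms. The highest library exceeded the lowest 1.4-fold for miR-132-3p, 1.89-fold for miR-132-5p, 1.77-fold for miR-212-3p and 3.06-fold for miR-212-5p. Inside each group the chi-square per degree of freedom of miR-212-5p was 125.0 in GDE and 104.0 in Control. These intervals cover counting error only. Whether molecular identifiers were used is not stated, and without them PCR copies of 1 molecule would count repeatedly.

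The arms of Mir212 were close in level on average, and their balance moved between libraries. The ratio of miR-212-5p to miR-212-3p was 0.927, 0.621 and 0.516 in GDE replicates 1 to 3, against 0.615, 1.94 and 0.913 in Control replicates 1 to 3. Only in Control replicate 2 did the 5p arm exceed the 3p arm, and there miR-212-5p was at its highest and miR-212-3p at its lowest. On the log2 scale the mean ratio was -0.57 ± 0.42 in GDE and 0.04 ± 0.83 in Control (SD, n = 3 each), a difference of -0.61 (SE 0.44; limma over 155 precursors, adjusted p = 0.753; exact permutation p = 0.5). With 1 library left out it lay between -0.98 (without Control replicate 1) and -0.16 (without Control replicate 2).

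Such a balance and such a range were set beside those of the 155 precursors with both arms past the filter. For Mir212 the 5p to 3p balance averaged -0.27 on the log2 scale, and 7 of the 155 precursors, Mir212 among them, had arms this close or closer, where the median distance from 0 was 3.17. Its range over the 6 libraries was 1.88, against a median of 0.874, and it ranked 12 of 155. Among the 26 precursors whose lower arm was within a factor of 2 of that of Mir212, it ranked 2, and their median range was 0.804. Control replicate 2 lay 1.34 above the median of the 6 libraries for Mir212. Over all precursors the same deviation had a median of 0.01 in that library, and between -0.03 and 0.04 in each library. That median is signed and taken around the middle of each precursor, so it shows only that the arms of a library did not shift together. It does not show how far single precursors lay from their middle. No member of this set of ratios was called between the groups, as 0 of 155 precursors (0%) had an adjusted p under 0.05 in limma, with 9 at an unadjusted p under 0.05.

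**Figure D3:**
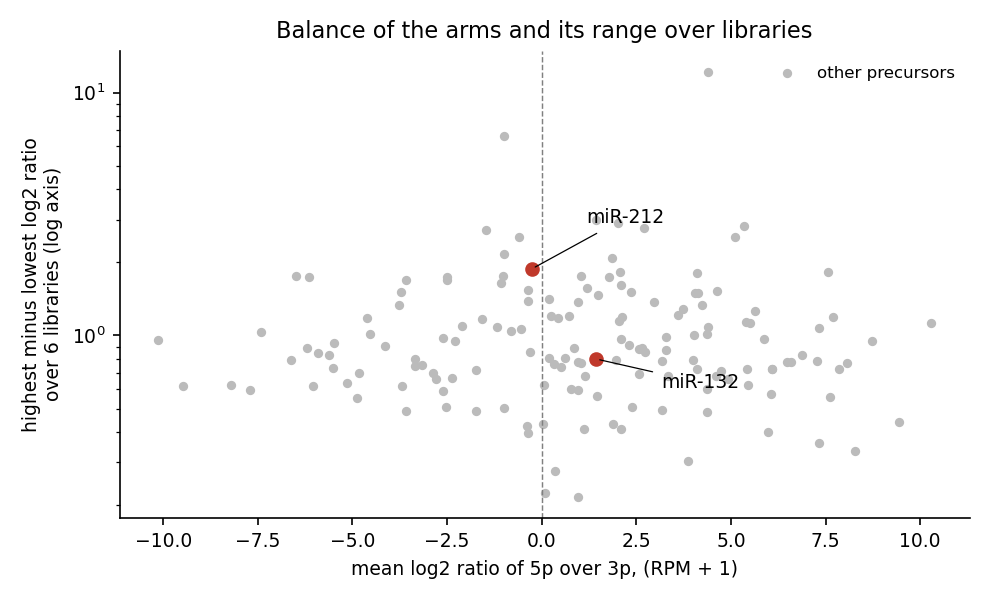
Mean log2 balance of the arms, 5p over 3p (x axis), and its range over the 6 libraries (y axis, log scale) for 155 precursors, with miR-212 and miR-132 in red. miR-212 sits near a ratio of 0 with a range of 1.88, and miR-132 at a mean ratio of 1.43 with a range of 0.801.

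For Mir132 the balance lay toward the 5p arm in all libraries. The ratio of miR-132-5p to miR-132-3p was 2.23, 3.17 and 2.78 in GDE replicates 1 to 3, against 3.4, 2.6 and 4.09 in Control replicates 1 to 3. The groups overlapped, with log2 means of 1.29 ± 0.25 in GDE and 1.57 ± 0.30 in Control (SD, n = 3 each). The difference was -0.27 (SE 0.24; limma over 155 precursors, adjusted p = 0.753; exact permutation p = 0.3), and with 1 library left out it lay between -0.44 (without Control replicate 2) and -0.14 (without GDE replicate 1 or Control replicate 3). A higher 5p arm was common, found on average in 98 of the 155 precursors. The range of Mir132 over the 6 libraries, 0.801, was below the median of the 155 precursors and ranked 87.

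The proportion of the carriers of the shared seed was compared next. The ratio of miR-132-3p to miR-212-3p was 0.0594, 0.0754 and 0.0788 in GDE replicates 1 to 3, against 0.0647, 0.1 and 0.0618 in Control replicates 1 to 3. The groups overlapped, and Control replicate 2, where miR-212-3p was lowest, had the highest ratio. The log2 means were -3.60 ± 0.21 in GDE and -3.54 ± 0.37 in Control (SD, n = 3 each), with a difference of -0.06 (exact two-sided permutation p = 0.8). Over the 3 ratios compared between the groups, the exact permutation p adjusted by Benjamini-Hochberg was 0.75 to 0.8.

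**Figure D4:**
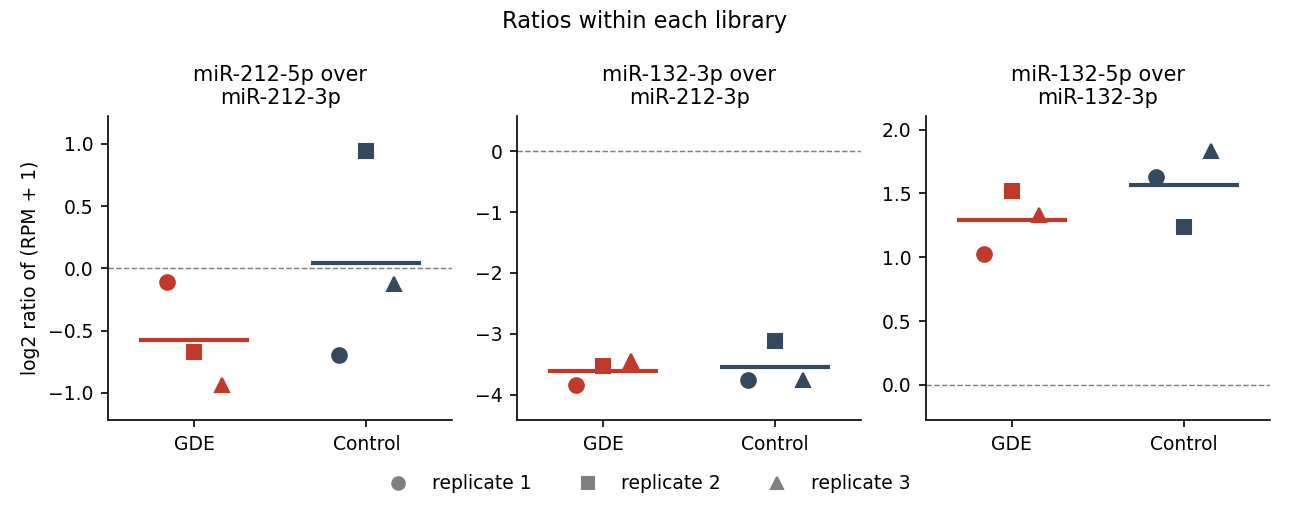
log2 ratios of (RPM + 1) within each library, with 0 dashed and lines at the group means, each panel on its own scale. Control replicate 2 stands at 0.94 in the panel of the Mir212 arms, where the other 5 libraries lie between -0.94 and -0.11; the remaining panels keep 1 sign in all 6 libraries.

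The total output of the cluster, as the sum of the 4 rows, was 190.5, 152.2 and 129.0 RPM in GDE replicates 1 to 3, against 195.1, 191.0 and 171.7 RPM in Control replicates 1 to 3. GDE replicates 2 and 3 were below all Control libraries, and GDE replicate 1 was within the Control range. The sums averaged 157.2 ± 31.0 RPM in GDE and 186.0 ± 12.5 RPM in Control (SD, n = 3 each), a log2 difference of -0.26 (exact two-sided permutation p = 0.2). It was -0.13 without GDE replicate 3 and -0.41 without GDE replicate 1. Most of the gap came from miR-212-5p, whose means differed by more RPM than those of the other 3 rows together.

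Across the 6 libraries Pearson's r of log2(RPM + 1) between the arms of Mir212 was -0.22, between the 5p arms -0.29, and between miR-132-5p and miR-212-3p 0.32. With miR-132-3p it was 0.37 for miR-132-5p, 0.29 for miR-212-3p and -0.12 for miR-212-5p; as the differences among libraries of miR-132-3p lay within counting error, these 3 values say little of how the arms move together. These are descriptions over 6 libraries that share their depth and handling with both arms.

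Rows with the most similar pattern were then sought among up to 320 named rows of at least 10 RPM, by Pearson's r over the 6 libraries. miR-212-5p was closest to miR-467d-5p (r = 0.99), miR-24-3p (0.93) and miR-541-5p (0.93). miR-24-3p was also highest in Control replicate 2, at 3112 RPM, and lowest in GDE replicate 3, at 1354 RPM. miR-212-3p was closest to let-7g-5p (0.97), miR-3074-5p (0.95) and miR-324-5p (0.93). Pearson's r takes no account of amplitude: let-7g-5p ran only from 6332 to 6960 RPM, while miR-212-3p ran from 58.0 to 102.7 RPM. miR-132-5p was closest to miR-21a-3p (0.93), miR-19b-3p (0.92) and miR-210-3p (0.89). miR-132-3p was closest to miR-93-3p (0.96), miR-466c-5p (0.94) and miR-92a-3p (0.93). miR-132-3p, below 10 RPM, could not be returned for another arm; the other 3 arms could, and none was among these 12 rows. With so few libraries high values were common, and the median of the best r over the 320 rows was 0.97.

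Other miRNAs reported to respond to neuronal activity or CREB signals were compared as a list of 17, chosen for the biology with earlier results of these data known. All 17 were tested. Their log2 folds were positive for 9 and negative for 8, with a median of 0.01, against a median of -0.07 over all tested miRNAs. None passed the threshold in limma. At an unadjusted p under 0.05 there was 1 of 17, against 8.63% of all tested miRNAs, and the same 1 had groups that did not overlap, against 14.6%. It was miR-29b-3p, with means of 182.6 ± 28.8 RPM in GDE and 121.9 ± 26.3 RPM in Control (SD, n = 3 each; log2 fold 0.59, SE 0.23; limma, adjusted p = 0.561). The most abundant members, miR-9-3p and miR-34a-5p, had log2 folds of -0.009 and -0.003 (SE 0.08 and 0.06). Both stood at the top of the levels, at a mean log2(RPM + 1) of 12.94 and 12.93. Unrelated miRNAs lay close by, such as let-7a-5p at 12.96 and miR-99a-5p at 13.09. Whether levels at this top are compressed was not tested, so these folds do not show equal levels. miR-134-5p, a dendritic miRNA that restrains spine growth, averaged 4.12 ± 0.878 RPM in GDE and 3.59 ± 0.522 RPM in Control (SD, n = 3 each; log2 fold 0.15; limma, adjusted p = 0.887). miR-138-5p, also found in dendrites, averaged 333.8 ± 33.3 RPM in GDE and 308.2 ± 29.3 RPM in Control (SD, n = 3 each; log2 fold 0.11; limma, adjusted p = 0.892). miR-29b-3p, miR-134-5p and miR-138-5p were picked for naming after their values were seen.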

How the data were processed

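The labels' protocols give TRIzol extraction and the MGIEasy Small RNA Library Prep Kit. Bowtie2 and mm10 stand in the submitters' processing notes, with no role; trimming, multiply matching reads and molecular identifiers were not stated there. The unit of the deposited values, RPM, was inferred: the headers say expression only, and values of up to 3000 steps came in whole multiples of a library-specific step (100% within 0.1 reads), which gave the depth and whole reads. Design and test were those planned for normalized values. limma 3.58.1 with a trend was fitted in R 4.3.3 on log2(RPM + 1) over 649 miRNAs of at least 1 RPM in 3 libraries, two-sided, with Benjamini-Hochberg adjustment at 0.05. edgeR 4.0.16 and DESeq2 1.42.0 were run on recovered reads; edgeR called 2 miRNAs, as limma did. Arm ratios used limma without a trend. Exact permutation tests used scipy 1.17.1 in Python 3.11.15. The fits were also run on simulated data with known changes. The share of those changes recovered is not given here, so that run says nothing of the power for the arms of the cluster. Members, lists and rules were chosen with earlier results of these data known. Named rows were the members, miRNAs with their seeds, the 3 rows most like each, and leading or called members of lists. List members picked after their values were seen are marked as such above. Replicate pairs differed beyond sampling noise (chi-square per degree of freedom 50.1 to 185.8), and each library counts as 1 replicate. Coordinates are GRCm38.p6 (RefSeq) and GENCODE M21, on the assembly called mm10.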

Additional observations from a re-analysis of the deposited data

How the results depend on the processing

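No alternative brought an arm past the threshold. Of 157 values recomputed under other settings, 9 changed sign, and each of these belonged to a difference near 0. The log2 fold of miR-132-3p was 0.034 rescaled to the sum of the table, 0.072 with TMM factors and 0.073 in DESeq2, and between -0.125 and 0.079 with 1 library left out. That of miR-212-3p lay between -0.16 and 0.25 with 1 library left out, and the group difference of the log2 ratio of miR-132-3p over miR-212-3p between -0.17 and 0.16. TMM factors moved the median log2 fold of all miRNAs by 0.08. The number of called miRNAs was 1 with at least 10 RPM in 3 libraries and 7 in DESeq2. The order of levels kept its direction with 1 library left out, but 5 libraries allow no p below 0.0625. The within-library log2 ratios then lay between 2.01 and 2.20 for miR-212-3p over miR-132-5p, 3.52 and 3.67 for miR-212-3p over miR-132-3p, 1.69 and 2.02 for miR-212-5p over miR-132-5p, 3.16 and 3.47 for miR-212-5p over miR-132-3p, and 1.35 and 1.51 for miR-132-5p over miR-132-3p; these were added after the data were seen. Same-numbered libraries had correlations of deviations of -0.12 to -0.03, against -0.074 to 0.146 for libraries of different numbers. The deviations were taken from group means of 3 libraries, so these values cannot decide whether the numbers mark pairs. With a replicate block the log2 fold of miR-212-5p was -0.57 (limma, adjusted p = 0.675) and 2 miRNAs were called. The filter of 10 RPM removed miR-132-3p. A missing call at 3 against 3 libraries does not show equal levels.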
